A study of Mus musculus with 40 samples.

Results

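The genes described here are 39 genes known from macrophages, chosen by symbol from the 24062 genes of a count table of mouse embryonic fibroblasts (MEFs), and all 39 were found. MEFs are primary cultures grown from minced embryos, here of 13.5 days post coitum and of a mixed C57BL/6J-129P2OlaHsd background, and such cultures can carry cells other than fibroblasts. The embryos were WT, Het or KO for Sall2, a zinc finger transcription factor gene that was targeted with a neomycin cassette in 129P2-derived embryonic stem cells. Cultures were left untreated (control) or received 1 µM doxorubicin, a DNA-damaging topoisomerase poison, for 16 h. The control group held 1 WT, 1 Het and 3 KO libraries. The doxorubicin group held 1 WT, 1 Het and 2 KO libraries, because the third KO column had the same count as KO 2 for each of the 24062 genes and was counted once with it. Libraries with the same genotype and number in both treatments are taken as cultures of the same embryo, which gave 4 embryos with both treatments, and KO 3 had a control library only.

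Macrophages of the embryo arise from yolk sac and fetal liver progenitors and settle in every tissue. Their growth and survival depend on the receptor Csf1r and its ligands Csf1 and Il34, and their gene program depends on the transcription factor PU.1, encoded by Spi1. Genes such as Ptprc, Itgb2 and Tyrobp are carried by all macrophages and so follow how many there are in a bulk sample, while genes such as Mrc1, Cx3cr1, C1qa and Cd14 also differ between macrophage states. In bulk RNA, the number of macrophages and the amount of RNA per macrophage cannot be told apart.

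Totals lay between 15560728 and 24122414 counts per library, and 3 counts equaled 0.124 to 0.167 CPM (library-scaled counts, here with TMM factors). Sall2 had 37.0 CPM in WT, 24.3 in Het and between 19.1 and 23.8 in the 3 KO control libraries, and 9.34, 8.33, 4.23 and 3.71 CPM in WT 1, Het 1, KO 1 and KO 2 with doxorubicin. The Sall2 level in KO was thus below that of WT in both treatments, with reads remaining. Het 1 in both treatments and KO 3 control stood apart from the other 6 libraries. Their 15 interferon-stimulated genes summed to 2579, 1628 and 2782 CPM, against 60.4 to 82.5 CPM in the other control libraries and 349 to 437 CPM in the other doxorubicin libraries. Their 12 fibroblast genes, such as Fn1 and Col1a1, summed to 19564, 22771 and 15261 CPM, against 45522 to 91409 CPM elsewhere. The same 3 libraries held the most macrophage gene counts, and the part of the interferon and fibroblast differences in the results below was not tested.

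The sequences upstream of C1qb, C1qc and Mrc1 are shown because C1qb and C1qc are neighbors that changed by different amounts between libraries and Mrc1 went the opposite way. They are from the RefSeq promoter table of build GRCm38.p6, 5′ to 3′ on the strand of the gene, ending upstream of the start given by RefSeq and by GENCODE M21. Capitals mark GAGGAA, the core recognized by PU.1, on either strand (TTCCTC on the printed one).
C1qb (chr4:136886201-136886450, minus strand): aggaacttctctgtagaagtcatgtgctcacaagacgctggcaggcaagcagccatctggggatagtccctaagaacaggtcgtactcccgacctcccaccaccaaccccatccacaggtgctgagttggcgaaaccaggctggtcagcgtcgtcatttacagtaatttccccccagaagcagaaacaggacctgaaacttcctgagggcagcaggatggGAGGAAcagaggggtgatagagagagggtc
C1qc (chr4:136893066-136893164, minus strand): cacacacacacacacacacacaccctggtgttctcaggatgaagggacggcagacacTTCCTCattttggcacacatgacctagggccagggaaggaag
Mrc1 (chr2:14229164-14229391, plus strand): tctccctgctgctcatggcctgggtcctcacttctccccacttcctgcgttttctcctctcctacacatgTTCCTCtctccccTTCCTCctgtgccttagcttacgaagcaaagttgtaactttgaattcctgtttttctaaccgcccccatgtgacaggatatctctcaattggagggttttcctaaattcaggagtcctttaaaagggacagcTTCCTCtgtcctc
The stretches differ in length: C1qb held 1 match in 250 bases, C1qc 1 in 99 and Mrc1 3 in 228. In the 250 bases upstream of the RefSeq start, 16 of the 27 genes with an entry (59.3%) held the core, against 25.9% of all 27025 genes in the table. These letter matches are a description and not sites of binding.

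Macrophage RNA was present in every culture, and its amount differed far more between cultures than between treatments. The 39 genes took 0.0329% of the counts in WT control (95% Wilson interval 0.0322 to 0.0336%), 0.176% in Het, and 0.0231%, 0.0173% and 0.110% in KO 1, KO 2 and KO 3. With doxorubicin the shares were 0.0267% in WT, 0.196% in Het, 0.0238% in KO 1 and 0.0176% in KO 2. The intervals cover counting error only. A shared macrophage level was computed as the mean log2 CPM of 9 genes: Spi1 and Csf1r, the pan-leukocyte membrane genes Ptprc, Laptm5 and Cd53, the integrin beta chain Itgb2, the F4/80 antigen Emr1 (now Adgre1), and the signaling adaptors Tyrobp and Fcer1g. As a geometric mean it was 7.81 CPM in WT control, 39.5 in Het, and 6.06, 4.05 and 22.8 in KO 1, KO 2 and KO 3. With doxorubicin it was 5.45 in WT, 35.7 in Het, 5.42 in KO 1 and 3.06 in KO 2. Het 1 thus stood highest in either treatment, KO 3 next, and the 3 KO control cultures spread across a log2 SD of 1.30 (mean 3.04, n = 3), wider than the distance of WT (2.97) from their mean.

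**Figure D1:**
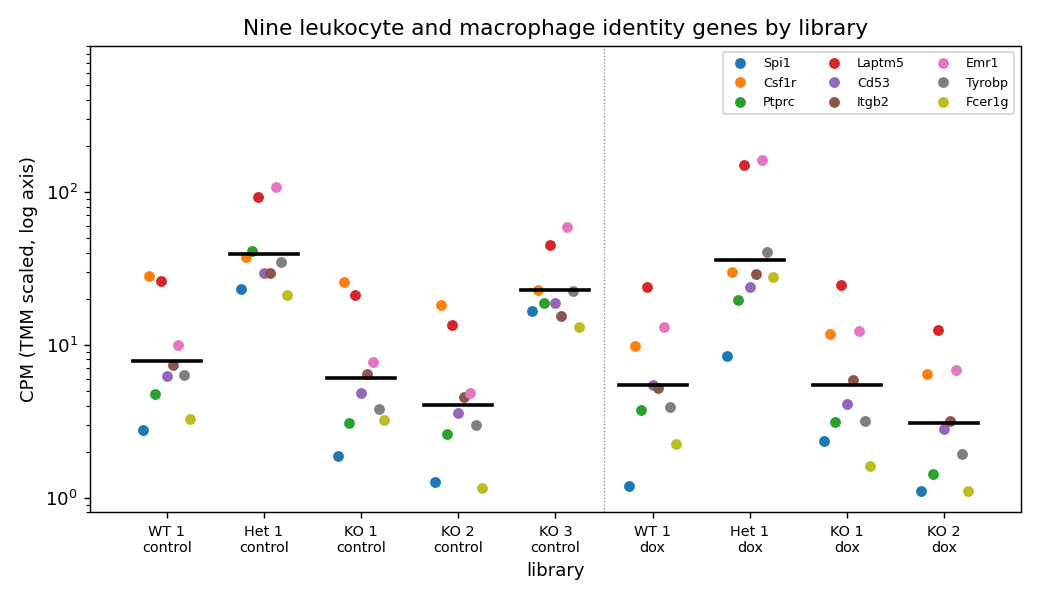
CPM (log axis) of the 9 genes that make up the shared macrophage level, by library; each point is 1 gene and each bar is the geometric mean of the 9. The bars of Het 1 (39.5 and 35.7 CPM) and KO 3 (22.8 CPM) lie above those of the other 6 libraries (3.06 to 7.81 CPM).

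Single genes showed the same order. Ptprc (CD45), the phosphatase of all leukocytes, had 98, 995, 61, 47 and 416 counts in WT, Het, KO 1, KO 2 and KO 3 control, and 75, 385, 56 and 31 in WT, Het, KO 1 and KO 2 with doxorubicin. Tyrobp (DAP12), an adaptor of activating receptors, had 130, 836, 76, 54 and 501 counts in control and 79, 797, 57 and 42 with doxorubicin. Lyz2, the macrophage lysozyme and the most abundant of the 39, had 1912, 8201, 1223, 923 and 6419 counts in control and 1252, 7498, 796 and 743 with doxorubicin. In all 3 genes every Het and KO 3 value exceeded every value of the other embryos. Against WT control, among genes with at least 10 counts in 1 of the 2 libraries, 31 of 36 were higher in Het control and 28 of 36 in KO 3 (medians 1.99 and 1.45 log2), where 51.8% and 50.5% of all such genes were higher. In KO 1 and KO 2, 1 of 36 and 0 of 36 were higher (medians -0.49 and -0.93 log2), where 46.2% and 46.9% of all genes were.

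To separate genes that moved with this level from genes that did not, the level was subtracted from the log2 CPM of each gene in each library, leaving a gene of the 9 out of its own level. This departure does not depend on library scaling. Of the 39 genes, 31 had at least 10 counts in every library. Of these, 13 followed the level (SD of the 9 departures at most 0.5 on the log2 scale) and 18 departed from it. The other 8 (Clec4n, Mrc1, Cd163, Lyve1, Ms4a6c, Aif1, Pf4 and F13a1) were too low in at least 1 library to be placed. Of the 9 genes of the level itself, 6 followed (Ptprc, Laptm5, Cd53, Itgb2, Tyrobp, Fcer1g). Spi1, Csf1r and Emr1 departed (SDs of 0.61, 1.05 and 0.70). The remaining followers were 7 of the 22 placed others.

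Those 7 had several roles. Itgam, the CD11b integrin chain, had an SD of 0.21 while its log2 CPM varied with an SD of 1.26. Lyz2 had an SD of 0.22 (1.36 for its log2 CPM), and Cybb and Ncf1, subunits of the phagocyte NADPH oxidase, 0.37 and 0.41 (1.73 and 1.28). C1qb, Ctss (cathepsin S) and Hpgds (hematopoietic prostaglandin D synthase) had SDs of 0.35, 0.43 and 0.43. These genes therefore varied between cultures almost in step with the pan-leukocyte genes. Of 74 further macrophage and myeloid genes, 46 could be placed, 9 followed the level and 37 departed.

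**Figure D2:**
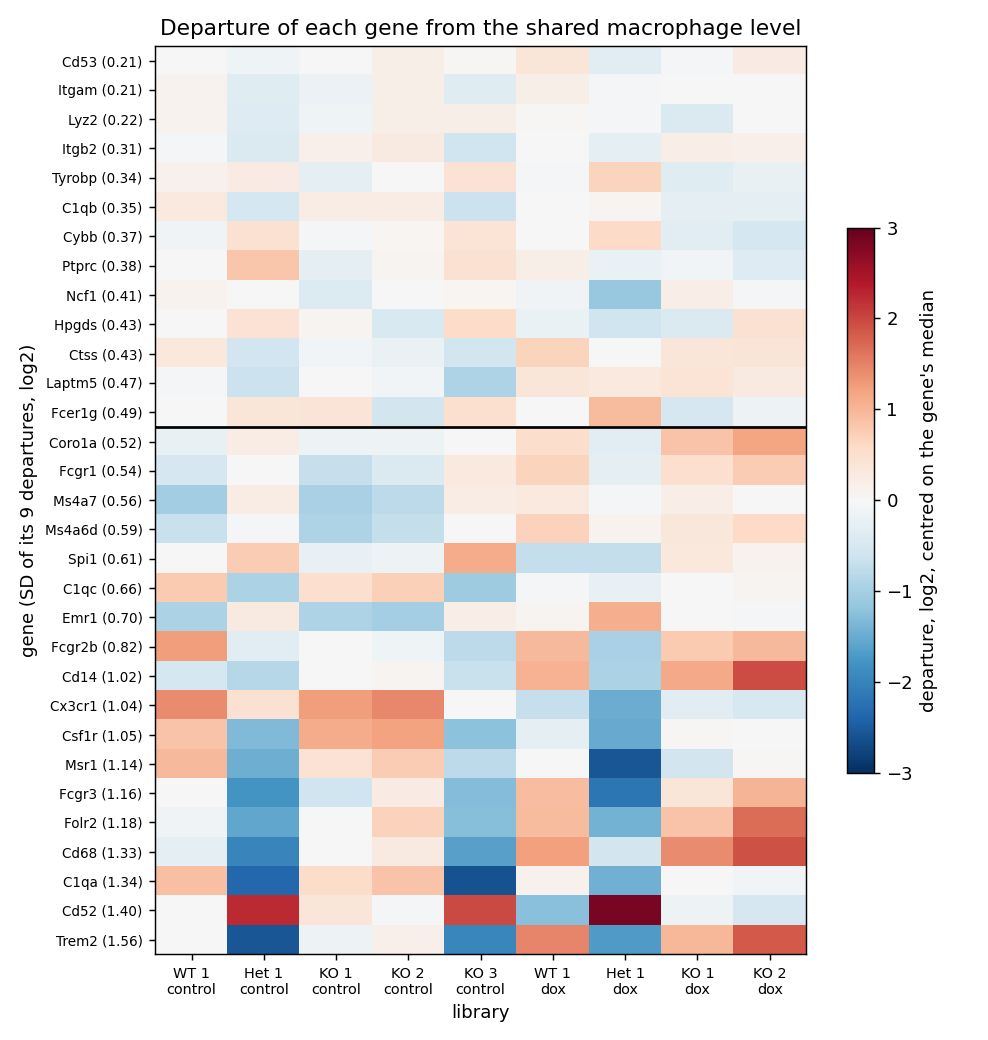
Departure of the 31 placed genes (rows, with the SD of the 9 departures) from the shared macrophage level in 9 libraries (columns), in log2 and centred on the median of each gene; red is above and blue below. The line divides the 13 followers from the 18 others, from Cd53 (SD 0.21) to Trem2 (SD 1.56).

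Cd52, which departed, and Aif1, which was not placed, were above the level in Het and KO 3. Cd52, a small glycosylphosphatidylinositol-anchored protein of leukocytes, had 60, 1734, 58, 26 and 768 counts in WT, Het, KO 1, KO 2 and KO 3 control and 16, 1973, 32 and 16 with doxorubicin. Its departure was 2.23 in Het control, 1.97 in KO 3, 2.86 in Het with doxorubicin and between -1.24 and 0.36 in the other 6 libraries. Aif1 (Iba1), a calcium-binding protein of macrophages, had 15, 751, 10, 5 and 402 counts in control and 14, 743, 16 and 11 with doxorubicin. Its Het and KO 3 values were the high ones, and its lowest library held 5 counts.

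A larger group stayed below the level in Het and KO 3. The growth factor receptor Csf1r had 28.1, 37.3, 25.5, 18.2 and 22.7 CPM in WT, Het, KO 1, KO 2 and KO 3 control, a narrow range beside that of Emr1, which had 9.97, 108, 7.74, 4.85 and 59.2 CPM in the same libraries. There were 2.82 Csf1r counts per Emr1 count in WT control, 3.30 and 3.75 in KO 1 and KO 2, and 0.346 and 0.384 in Het and KO 3. Emr1 itself departed by 0.28 and 0.20 in Het and KO 3 and by -0.94, -0.94 and -1.03 in WT, KO 1 and KO 2. Its own departure thus widened the gap between these ratios. Against the level, Csf1r departed by -1.33 and -1.23 in Het and KO 3 and by 0.85, 1.10 and 1.21 in WT, KO 1 and KO 2. The lipid receptor Trem2 had 29, 29, 19, 14 and 23 counts in control, the Fc receptor Fcgr3 had 56, 98, 27, 30 and 73, and the folate receptor Folr2 had 19, 43, 15, 15 and 27. These 3 genes, the lysosomal glycoprotein Cd68 and the scavenger receptor Msr1 departed in Het control by between -1.48 (Msr1) and -2.56 (Trem2). Their levels thus differed between cultures less than those of the pan-leukocyte genes, and whether cells other than macrophages contributed counts to them was not tested.

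The 3 subunit genes of complement C1q, which lie side by side on chromosome 4 and encode the chains of 1 protein, did not move together. C1qa (chr4:136895917-136898803) had 476, 299, 282, 213 and 132 counts in WT, Het, KO 1, KO 2 and KO 3 control. C1qb (chr4:136880129-136886187) had 414, 1410, 297, 182 and 684, and C1qc (chr4:136889804-136893065) had 408, 731, 250, 176 and 356 (coordinates from GENCODE M21, GRCm38). C1qb was thus highest in Het and KO 3, where C1qa was not in control. With doxorubicin C1qa was highest in Het, with 414 counts against 190 in WT, 155 in KO 1 and 99 in KO 2. Per kb of exon, the C1qa to C1qb level ratio was 1.20 in WT, 0.993 in KO 1 and 1.22 in KO 2, but 0.222 in Het and 0.202 in KO 3. The C1qc to C1qb ratio was 0.891, 0.761 and 0.875 in WT, KO 1 and KO 2 and 0.469 and 0.471 in Het and KO 3. With doxorubicin the C1qa to C1qb ratio was 0.857 in WT, 0.954 in KO 1, 0.901 in KO 2 and 0.273 in Het, so the low value of Het held in both treatments.

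Mrc1, the mannose receptor CD206, went against the level. It had 182, 95 and 76 counts in WT, KO 1 and KO 2 control and only 7 and 6 in Het and KO 3, and 38, 11, 15 and 28 counts in WT, Het, KO 1 and KO 2 with doxorubicin. Per 100 Emr1 counts there were 89.2 Mrc1 counts in WT, 61.7 in KO 1 and 86.4 in KO 2 control, and 0.269 and 0.456 in Het and KO 3. With doxorubicin there were 14.4, 6.76 and 18.9 in WT, KO 1 and KO 2 and 0.347 in Het. Emr1 itself departed upward in Het and KO 3, by up to 1.09 (Het with doxorubicin), which widened these gaps. The cultures with the most Emr1 thus had the least Mrc1. Whether cells other than macrophages contributed Mrc1 counts was not tested. The lymphatic endothelial genes Pdpn, Flt4 and Prox1 summed to 103, 61.5, 168, 109 and 84.0 CPM in WT, Het, KO 1, KO 2 and KO 3 control. Their sum was thus also lowest in Het and KO 3, while Prox1 by itself was highest there. Cd163 and Lyve1, other receptors of tissue macrophages, had at most 7 and 15 counts in any library, and no difference could be read at this depth.

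**Figure D3:**
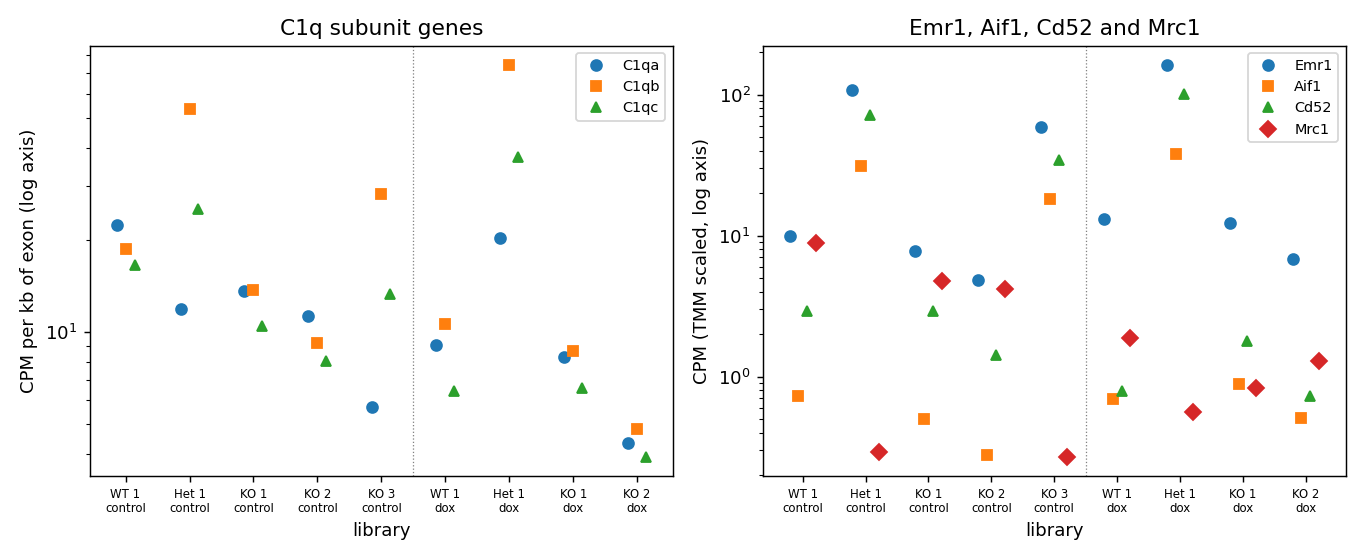
Left, CPM per kb of exon of the C1q subunit genes; right, CPM of Emr1, Aif1, Cd52 and Mrc1; both on log axes, by library. C1qa falls below C1qb in Het and KO 3 (ratios of 0.222, 0.202 and, for Het with doxorubicin, 0.273), and Mrc1 is lowest where Emr1 is highest.

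The comparison of doxorubicin with control asked how the drug changed these genes. The shared level was lower with doxorubicin in 4 of 4 embryos, by -0.52 log2 in WT, -0.14 in Het, -0.16 in KO 1 and -0.40 in KO 2 (mean -0.31 ± 0.18 SD, n = 4). The exact sign-flip permutation test gave p = 0.125 (two-sided), the smallest p that 4 embryos allow. The summed CPM of the 39 genes also fell in WT, KO 1 and KO 2 but rose in Het, from 1425 to 1548. The direction in Het thus depended on the measure. Around the small shift of the shared level, single genes moved both ways. With edgeR's quasi-likelihood test over the 9 libraries and genotype as a term, 36 of the 39 genes had enough counts to be tested (Cd163, F13a1 and Lyve1 did not). At a Benjamini-Hochberg adjusted p under 0.01, 2 rose, where 21.9% of all 14883 genes tested did, and 3 fell, where 20.2% did. The median log2 fold change was -0.77 over the 36 genes and -0.02 over all genes, but -0.27 without KO 3, which had no doxorubicin library and a high level.

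Genes of 3 receptors fell. Cx3cr1, the fractalkine receptor, had 337, 1045, 227, 159 and 402 counts in WT, Het, KO 1, KO 2 and KO 3 control and 52, 198, 61 and 36 in WT, Het, KO 1 and KO 2 with doxorubicin. It fell by 2.36 on the log2 scale (SE 0.31, adjusted p = 0.000332), with changes from -2.63 to -1.72 log2 within the 4 embryos. Of the doxorubicin values, Het alone exceeded any control value, that of KO 2. Msr1, the class A scavenger receptor, had 305, 332, 156, 119 and 282 counts in control and 105, 113, 63 and 65 with doxorubicin. It changed by -1.43 log2 (SE 0.25, adjusted p = 0.00136), and its groups did not overlap. Csf1r had 575, 901, 508, 330 and 505 counts in control and 198, 590, 212 and 141 with doxorubicin. It changed by -1.11 log2 (SE 0.27, adjusted p = 0.00718), with -0.31 in Het and -1.11 to -1.51 in the other embryos.

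Csf1, which encodes the main Csf1r ligand and is made by fibroblasts, fell as well. It had 539, 427, 980, 535 and 457 CPM in WT, Het, KO 1, KO 2 and KO 3 control and 216, 255, 301 and 224 CPM with doxorubicin (-1.19 log2, SE 0.28, adjusted p = 0.00643, by edgeR), and its groups did not overlap. Il34, the other ligand, had at most 2.85 CPM in any library and did not pass the test (-0.38 log2, SE 0.25, adjusted p = 0.222, by edgeR).

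A pair of genes rose. Cd68 had 166, 310, 153, 112 and 207 counts in control and 331, 615, 331 and 321 with doxorubicin, all 4 of them above every control library, and its change was 1.12 log2 (SE 0.18, adjusted p = 0.000925). Trem2 had 29, 29, 19, 14 and 23 counts in control and 57, 40, 36 and 44 with doxorubicin (1.01 log2, SE 0.25, adjusted p = 0.00909), and its groups did not overlap in counts. Both rose in 4 of 4 embryos while the shared level was lower. Of 10 lysosome and lipid associated genes that are not particular to macrophages, 3 rose and 0 fell, a share near that of all genes that rose (21.9%). They were Gpnmb (0.75 log2), Cd9 (0.81) and Fabp5 (0.72). The cathepsin genes Ctsd (0.74 log2, adjusted p = 0.0317, by edgeR) and Ctsb (0.67, adjusted p = 0.0516) did not pass. Both did with the embryo as a block (adjusted p = 0.000384 and 0.00123, by edgeR). In that block fit 6 of the 10 rose, where 30.6% of all genes did. Gpnmb, Cd9 and Fabp5 were named after their values were seen. Spp1, the most abundant of the 10, did not pass (0.28 log2, adjusted p = 0.413, by edgeR).

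These calls rested on few embryos. Without KO 1 or without KO 2, the share of all genes called in either direction went from 42.1% to 21.9% and 18.5%, and Cx3cr1 was the 1 macrophage gene still called by edgeR, with adjusted p-values of 0.0246 and 0.0347 for Csf1r, 0.0125 and 0.0117 for Msr1, 0.0141 and 0.0101 for Cd68 and 0.0753 and 0.104 for Trem2. Without WT the adjusted p was 0.0384 for Csf1r and 0.0428 for Trem2, and without Het it was 0.0176 for Trem2, while the direction of each gene held throughout. The changes stayed of similar size without KO 1 and without KO 2, at 1.06 and 1.12 log2 for Cd68 and 0.99 and 0.91 for Trem2.

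**Figure D4:**
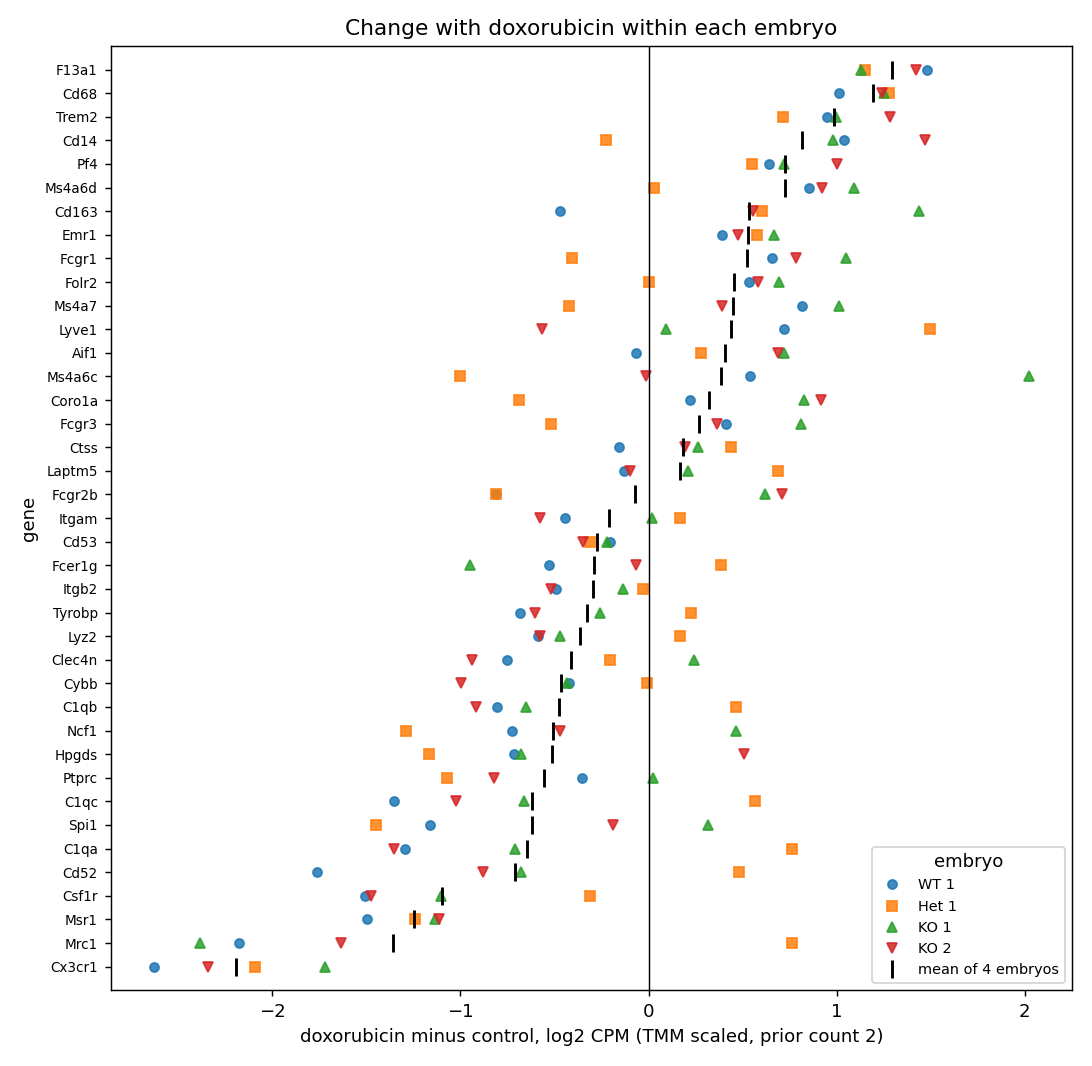
Doxorubicin minus control in log2 CPM for each of the 39 genes (rows, ordered by the mean) in each of the 4 embryos with both treatments (symbols); the black tick is their mean. Cx3cr1 (mean -2.19) and Cd68 (mean 1.20) moved the same way in 4 of 4 embryos, while Mrc1 and the C1q genes were lower in WT, KO 1 and KO 2 and higher in Het. For Mrc1 the Het point rests on 7 and 11 counts.

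With the embryo as a block, so that each doxorubicin library is set against its own control, Emr1 also rose. It was 0.54 log2 higher (SE 0.11, adjusted p = 0.00264, by edgeR) and higher in 4 of 4 embryos, although without the block its change was -0.47 log2 (SE 0.79, adjusted p = 0.635). In that fit 3 of the 36 genes rose, where 30.6% of all genes did, and 3 fell, where 28.8% did, with a median of -0.26 log2 over the 36 genes and 0.03 over all genes. KO 3 adds nothing to it, having no partner.

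Of the remaining genes, some had 1 direction in 4 of 4 embryos without passing the test, such as Pf4, a chemokine gene (0.55 to 1.00 log2), and Cd53 (-0.35 to -0.21 log2), and others differed between embryos. Pf4 was low, with 13, 11, 10 and 7 control counts in WT, Het, KO 1 and KO 2, and 21, 14, 16 and 19 with doxorubicin. C1qa, C1qb, C1qc and Mrc1 were lower with doxorubicin in WT, KO 1 and KO 2 and higher in Het, by 0.76, 0.47, 0.57 and 0.76 log2 in that order, and none of the 4 passed the test over the 9 libraries. The Mrc1 value of Het rested on 7 control and 11 doxorubicin counts, too few to read a direction. Without KO 3, Mrc1 passed (-1.67 log2, adjusted p = 0.00737, by edgeR). Cd14, a co-receptor for lipopolysaccharide, went from 245 to 498 counts in WT, from 265 to 473 in KO 1 and from 171 to 572 in KO 2, but from 1159 to 807 in Het, and did not pass (0.48 log2, adjusted p = 0.29, by edgeR), though it did by DESeq2 with the embryo as a block (0.85 log2, adjusted p = 0.00387), which in turn did not call Trem2 (adjusted p = 0.0112). In a fit of WT 1, KO 1 and KO 2 alone with the embryo as a block, chosen after the data had been seen because Het 1 and KO 3 stood apart, 8 of 36 genes rose, where 39.3% of all genes did, and 10 fell, where 36.4% did. The 18 genes included Cd14 (1.16 log2) and Ms4a6d, a tetraspan membrane protein (0.97), among those that rose, and Mrc1 (-2.13), C1qa (-1.13), C1qc (-1.04), C1qb (-0.80) and Lyz2 (-0.55) among those that fell. The difference between Het and the other embryos was not tested, since Het was 1 embryo. The test of a different response in KO than in WT called 0 of 16656 genes (58 with an unadjusted p under 0.05), and 0 of the 38 macrophage genes tested had an unadjusted p under 0.05.

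KO was compared with WT separately in each treatment, with 1 WT library in each, so that the spread came from the KO libraries. In control, 0 of the 37 genes tested passed by edgeR at an adjusted p under 0.01, and neither did any of 14470 genes (0% called, 10 with an unadjusted p under 0.05), and 0 calls in so small a comparison does not show that KO and WT were alike. Over the 37 genes the KO minus WT difference had a median of 0.54 log2, but -0.70 without KO 3, and 0 of 36 genes were then higher in KO. Its sign therefore came from 1 of the 3 KO cultures. With a factor of unwanted variation removed by RUVg and an exact test, 0.581% of all genes were called, and 2 of the 37, C1qa (-1.02 log2, adjusted p = 3.24e-06) and Mrc1 (-1.71 log2, adjusted p = 1.82e-08), were lower in KO. KO 3 had the fewest counts of both genes among the control libraries. With doxorubicin, 0 of 37 genes passed, where 0.197% of all 15256 genes did, and the median was -0.50 log2, with the lowest adjusted p at 0.123 for Lyz2 (-0.68 log2, SE 0.19, by edgeR).

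Markers of other blood cells differed by list. Erythroid genes had at most 14 counts in any library, with 6 of 8 at or under 3 counts throughout, and the neutrophil genes summed to between 0.196 and 7.02 CPM, highest in KO 3. Lymphocyte genes summed to between 0.147 and 0.54 CPM in control and between 2.15 and 8.99 CPM with doxorubicin, most of it from Cd79a, while Cd3e had at most 5 counts. Megakaryocyte and platelet genes summed to between 16.1 and 106 CPM. Of the 5 tested, 3 rose with doxorubicin, where 21.9% of all genes did, and 0 fell. Itga2b, an integrin chain of platelets, was among those that rose (2.41 log2, SE 0.40, adjusted p = 0.00106, by edgeR). Gp1bb (0.23 log2, adjusted p = 0.387, by edgeR) and Ppbp (0.50 log2, adjusted p = 0.273) did not pass. Osteoclast genes, of which Mmp9 and Ctsk were the most abundant, summed to between 114 and 351 CPM, and 0 of the 3 tested passed. Of 7 mast cell genes, Kit alone had enough counts to be tested, and it rose with doxorubicin (3.60 log2). Ms4a2 and Mcpt4, other genes of that list, had at most 8 and 6 counts in any library. Of 6 dendritic cell genes, 3 were tested and 2 rose, among them Zbtb46 (1.13 log2), where 21.9% of all genes did. The part of such cells in the results above was not tested. The defining genes of fibroblasts were abundant in every library, with Col1a1 between 4182 and 23729 CPM.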

How the data were processed

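RNA was measured by RNA-Seq of rRNA-depleted, poly(A)-enriched RNA. The authors merged 4 FASTQ files per sample, aligned reads to mm10 with HISAT2 (version 2.1.0 per the labels) and deposited raw read counts per gene from HTSeq in union mode. The strand setting is not given in the sources used here, so counts of overlapping and antisense genes are uncertain. Libraries were grouped by their titles. Of 10 columns, 1 repeats another and was left out. Nothing says that libraries of a genotype came from separate litters, so p-values measure the spread between these libraries. Same-numbered libraries were taken as 1 embryo from the labels, and Xist and Y-linked counts matched within each pair. Xist was high in WT 1, Het 1 and KO 2, and Y-linked genes were high in KO 1 and KO 3. Such a match cannot tell embryos of the same sex apart. The KO embryos thus differed in sex among themselves, and sex was not a term in any fit. The difference between KO 1 and KO 2 correlated between treatments (r = 0.385 across 14883 genes, which are not independent).

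Genes were filtered with filterByExpr, scaled by TMM and tested with glmQLFTest (edgeR 4.0.16, R 4.3.3) at an adjusted p under 0.01. DESeq2 1.42.0 was an alternative. Log2 CPM used a prior count of 2. The doxorubicin fit with genotype as a term was run on simulated counts, which held no differences between embryos. The other fits were not run on simulated data. The genes, lists and tests were chosen with earlier results of these data known. Any of the 39 genes could be named. Outside them, Sall2, Csf1, Il34 and up to 3 genes of highest mean CPM per marker list could be named. Gpnmb, Cd9 and Fabp5 were named outside this rule. Emr1 is listed as Adgre1 in current annotations.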

Additional observations from a re-analysis of the deposited data

How the results depend on the processing

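The number of genes called with doxorubicin was 5 (2 higher, 3 lower) under RLE scaling, DESeq2, an adjusted p under 0.05 and totals without Rn45s. It was 2 (1 higher, 1 lower) at an adjusted p under 0.001, and 1 higher and 3 lower with every gene that had a count. With the replicate block the median changed to -0.26, with DESeq2 and the block to -0.17, where Cd14 was called and Trem2 was not. In WT 1, KO 1 and KO 2 alone, 12 genes were called (4 higher, 8 lower, median -0.30) without the block, and 18 (8 higher, 10 lower, median -0.30) with it. Leaving out 1 embryo at a time gave 1 to 6 genes called, 0 to 2 higher and 1 to 4 lower, with medians from -1.08 (without Het) to -0.27 (without KO 3), and Cx3cr1 was called each time. Without KO 1 or KO 2 it was the 1 gene called. The log2 change of Emr1 turned from -0.47 to 0.54 with the replicate block, 0.54 without KO 3, 0.51 in WT 1, KO 1 and KO 2 with and without the block, and 0.57 by DESeq2 with the block. That of Ms4a6d turned from -0.19 to 0.69, 0.69, 0.97, 0.97 and 0.74. Leaving out 1 embryo at a time, Emr1 lay between -0.83 and 0.54 and Ms4a6d between -0.49 and 0.69. In edgeR the block changed no other call of the 36 genes. By DESeq2 the median over all genes was 0.30 (17598 genes) against -0.02 in edgeR. KO against WT in control gave 0 genes under every alternative except RUVg with the exact test (2 genes, median -0.14). Its median lay between -0.70 and 0.85 when 1 KO embryo was left out. With doxorubicin, leaving out a KO embryo leaves 1 library against 1, and no test was run. The mean change of the shared level stayed negative under every alternative, from -0.41 (without Emr1) to -0.16 (all placed genes), and was -0.17 without a scaling factor; with all placed genes or without Spi1 (-0.27) the exact p was 0.25. The number of followers was 8 at an SD limit of 0.4, and within 1.5 times of 13 otherwise. In WT 1, KO 1 and KO 2 alone, 16 genes followed, 13 of them shared with the 9 libraries. Genes under about 10 counts (Cd163, Lyve1, F13a1) are limited by depth. Causes of these changes were not tested.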
